A study of Mus musculus with 12 samples.

Results

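The genes described here are 30 markers of astrocytes, measured with Illumina bead arrays in the caudate putamen of adult male mice exposed to ethanol through the mother and of controls. The caudate putamen is the dorsal part of the striatum. A gene was read through the probes that carry its symbol alone in the platform annotation, and a probe was tested where its detection p was under 0.05 on at least 6 of 12 arrays. By that rule 27 of the 30 genes were tested, through 43 of their 54 probes, out of 10933 genes and 20296 probes tested in all. No probe carries the symbol Clu, of a secreted chaperone, in the annotation used, and the gene was not analysed. The single probes of Mlc1, a membrane protein of astrocyte endfeet, and of S1pr1, a lipid receptor, were detected on 0 arrays. Where a gene had several tested probes, the brightest one stands for it unless another is named.

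The ethanol group was 6 samples from male C57BL/6J mice aged 12 weeks whose mothers drank 10% (v/v) ethanol by choice from day 0.5 to day 8.5 after mating. The control group was 6 samples of the same strain, sex, age and tissue. The labels repeat the drinking protocol on the control samples too, and do not say what the mothers of controls drank. The sample titles place 3 ethanol and 3 control arrays on each of 2 chips, called chip 1 (samples 1 to 3 of each group) and chip 2 (samples 4 to 6 of each group). Nothing in the labels ties a sample to a mouse or litter of its own, and the spread that the p-values measure may be in part technical.

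Astrocytes are the glial cells that take up potassium, water and neurotransmitters around synapses, couple to each other through gap junctions, and wrap blood vessels with endfeet. They supply neurons with lipids and energy substrates, and they respond to injury by making more intermediate filament protein. In the striatum they lie among projection neurons, whose synapses they surround, and among the myelinated fibre bundles made by oligodendrocytes.

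No astrocyte gene passed the test between ethanol-exposed and control mice. Over all 12 arrays, 0 of the 43 member probes passed limma's test at an adjusted p under 0.05, with 0% of all 20296 tested probes called. The adjusted p of the members lay between 0.845 and 1.00. At an unadjusted p under 0.05 there were 2 genes of 27, Id3 and Id4, and 3 of the 43 probes, against 5.79% of all tested probes. The 6 ethanol and 6 control arrays overlapped for each of the 27 genes, while they did not overlap for 0.266% of all tested probes. The ethanol value was the higher one for 14 genes and the lower one for 13, with a median log2 difference of 0.0004, the same as the 0.0004 over all tested probes.

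The 95% intervals of the differences limit how large a difference could be only if the samples are independent, which the labels do not settle. They pool the chips and were not adjusted for the number of genes. Of the 27 genes, 26 had the 95% interval of their ethanol minus control difference inside 2-fold up or down, the exception being Itih3, and 22 had it inside 1.5-fold. In a bulk sample, fewer astrocytes and less RNA per astrocyte cannot be told apart. The plot of differences shows the intervals beside the difference on each chip.

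**Figure D1:**
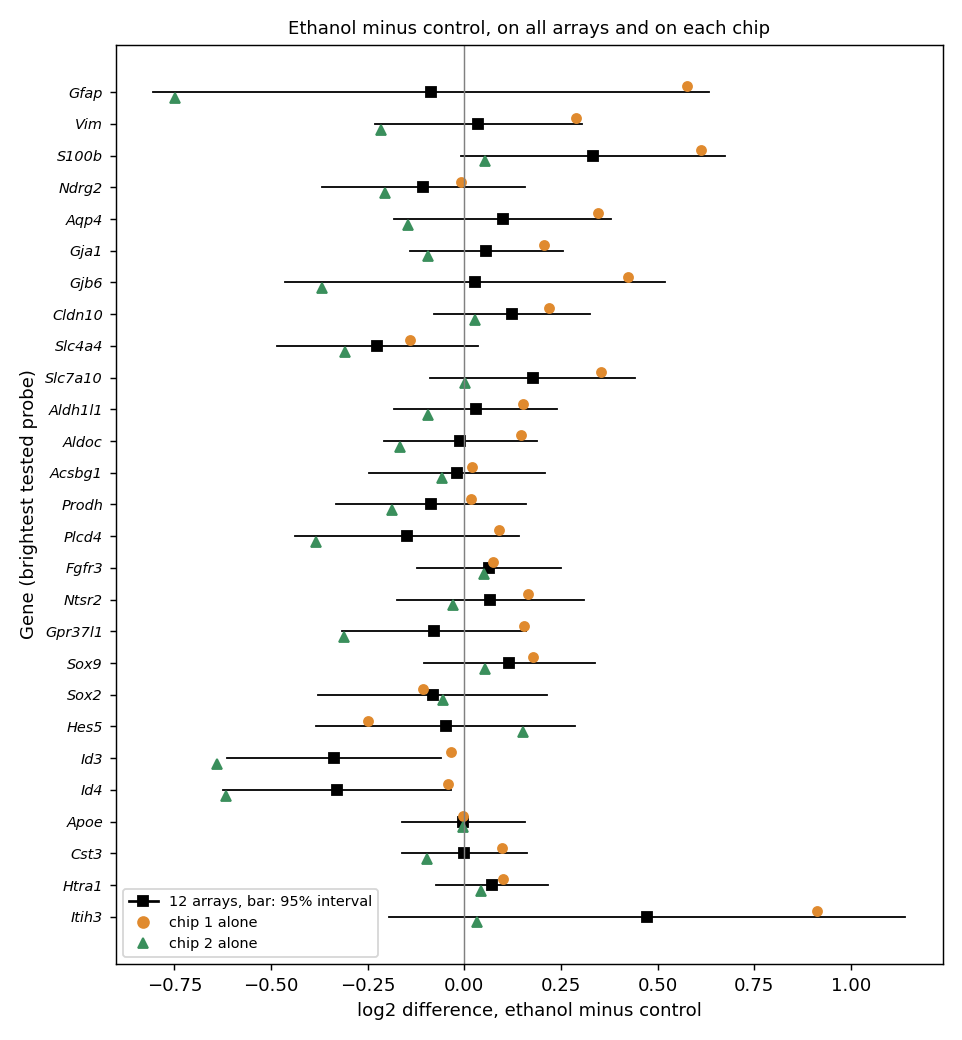
Log2 difference, ethanol minus control (x axis), of the 27 tested astrocyte genes (y axis, ordered by role). Squares with bars are the difference over 12 arrays with its 95% interval, circles the difference on chip 1 alone and triangles that on chip 2 alone. The circle lies to the right of the triangle for 25 of the 27 genes, and the bars of Id3 and Id4 alone leave out 0.

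The median difference of the astrocyte genes was above 0 on chip 1 and below 0 on chip 2, and no gene passed the test on either chip. On chip 1 the ethanol value was higher for 20 genes and lower for 7, with a median log2 difference of 0.15, where the median over all tested probes was −0.008 and 48.2% were higher. On chip 2 it was higher for 8 genes and lower for 19, with a median of −0.09, where all tested probes had a median of 0.008 and 51.7% were higher. The difference on chip 1 lay above that on chip 2 for 25 of 27 genes and for 47.2% of all tested probes. The sign itself was opposite on the chips for 14 of 27 genes (51.9%), where 53.8% of all tested probes had opposite signs. The 2 genes with a higher difference on chip 2 were Hes5 and Sox2. For Sox2 the change from chip 1 to chip 2 was 0.05 (SE 0.30), and its second probe gave −0.275 (SE 0.29). In limma's test of the interaction between group and chip, 0 member probes and 0% of all tested probes passed, the lowest adjusted p of the members being 0.415. At an unadjusted p under 0.05 the interaction held 5 of the 27 genes (Gfap, Vim, Gpr37l1, Id3 and Id4) and 10.0% of all tested probes.

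Within a chip, groups of 3 separate easily, and the members separated unevenly. On chip 1 all ethanol arrays lay above all control arrays for 8 of 27 genes (Aldoc, Cldn10, Cst3, Gja1, Htra1, S100b, Slc7a10 and Vim), with 6.17% of all tested probes doing so, and below them for 0 genes, with 6.42% of all tested probes. On chip 2 all ethanol arrays lay below all control arrays for 4 genes (Gpr37l1, Id3, Id4 and Slc4a4), with 7.81% of all tested probes, and above them for 0 genes, with 8.46% of all tested probes. No member passed adjustment on either chip in limma's test, where 0% of tested probes were called on each, the lowest adjusted p of a member being 0.753 on chip 1 and 0.290 on chip 2. Between the chips, whatever the group, 2 probes differed (0.00985% of those tested), and neither belonged to an astrocyte gene.

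Sample 3 of the ethanol group (ethanol 3) and sample 4 of the control group (control 4) stood apart from the other 10 in these genes. The mean log2 level of the 27 genes was 10.25 on ethanol 3 and 10.22 on control 4, against 9.82 to 10.03 on the other arrays. Ethanol 3 lay above the gene's own mean for 23 of 27 genes and was the highest array for 9, and control 4 lay above it for 26 and was the highest for 7. These arrays are on different chips. Over the whole array they also had the most detected probes, 21526 on ethanol 3 and 21949 on control 4, against 19452 to 20831 on the other arrays, and the part of this in the levels was not tested. Without ethanol 3 the median difference on chip 1 was 0.07, with 20 genes higher and 7 lower. Without control 4 the median on chip 2 was −0.03, with 11 higher and 16 lower, without ethanol 4 it was −0.15, with 4 higher and 23 lower, and without control 6 it was −0.15, with 3 higher and 24 lower. With ethanol 3 and control 4 both left out, the median difference over the other 10 arrays was 0.02, with 14 genes higher. The order of the chips also depended on these arrays. Without ethanol 3 on chip 1 and control 4 on chip 2, the difference was higher on chip 2 for Acsbg1, Apoe, Cldn10, Fgfr3, Itih3, Ndrg2 and Ntsr2. It was so for Hes5 and Sox2 as before, and the other genes kept the higher difference on chip 1.

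Markers of other cells moved with the same arrays. The oligodendrocyte list, of which 10 of 14 genes were tested, had a mean log2 level of 12.23 on ethanol 3 and 12.20 on control 4, against 10.85 to 11.69 on the other arrays. The list of striatal projection neurons (8 of 10 tested) was lowest on ethanol 3 at 12.39, ethanol 4 at 12.60 and control 4 at 12.62, and the other 9 arrays lay between 12.75 and 12.83. The thalamus list (5 of 9 tested) was at 8.82 on ethanol 3, 8.83 on ethanol 4 and 8.01 on control 4, against 7.35 to 7.79 elsewhere. Choroid plexus markers (2 of 9 tested) ranged from 8.10 to 11.07 in ethanol arrays and from 7.55 to 10.00 in control arrays. They were at 11.07 on ethanol 3, 10.26 on ethanol 4 and 10.00 on control 4. Control 4 did not stand apart in them, as control 3, control 5 and control 6 were at 9.75, 9.66 and 9.47. The part of these other cells in the astrocyte values was not tested.

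**Figure D2:**
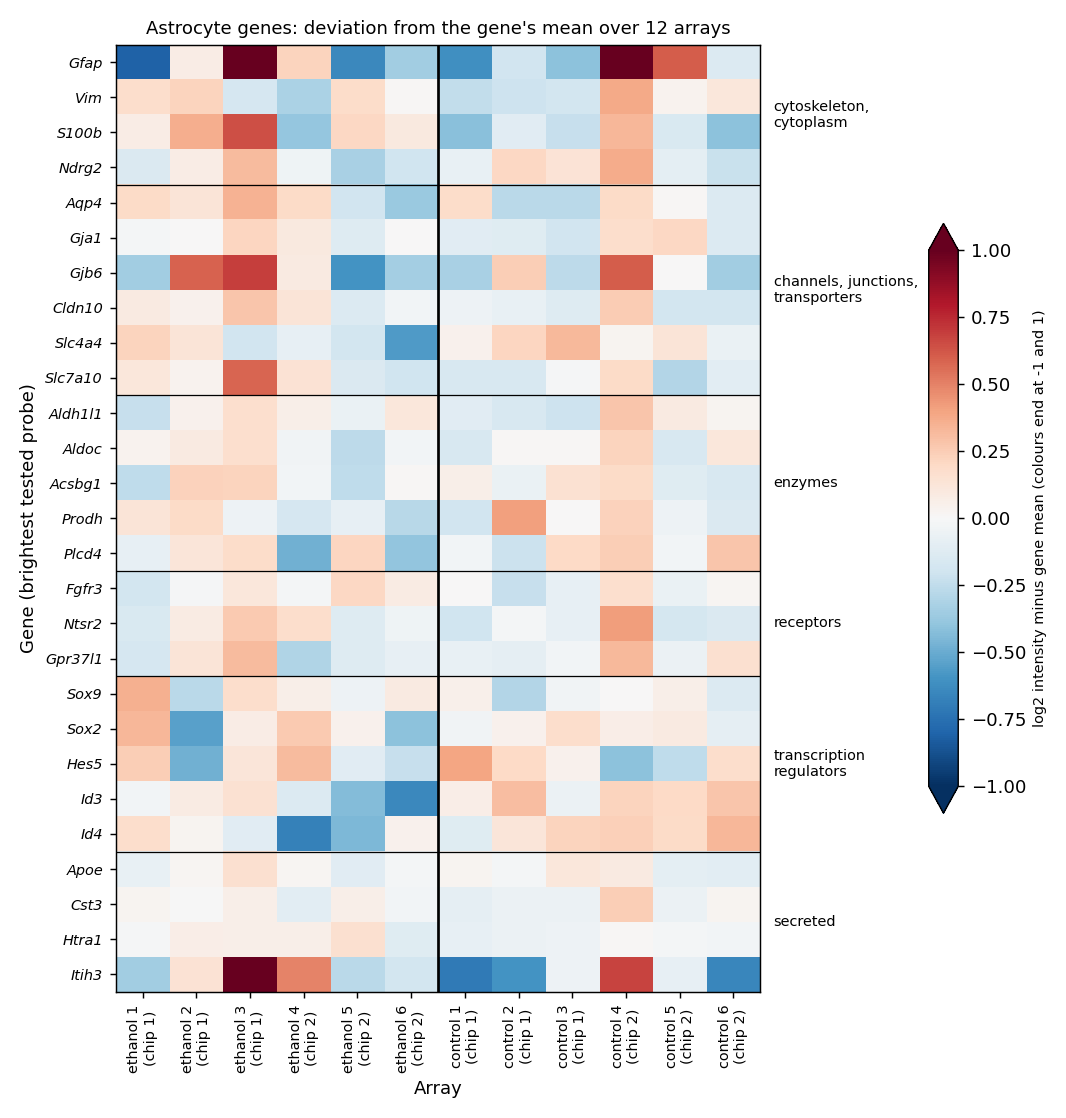
Log2 intensity of each tested astrocyte gene (rows, grouped by role) on each array (columns, ethanol left of control) minus the gene's mean over 12 arrays. Red is above the mean and blue below it, with colours ending at −1 and 1. The columns of ethanol 3 and control 4 are red for 23 and 26 of the 27 genes, and the rows of Gfap, Gjb6 and Itih3 hold the strongest colours.

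The defining markers were present in every sample. Gfap, Aqp4, Aldh1l1, Gja1, Slc7a10 and Aldoc were each detected on all 12 arrays by their brightest probe, as was the brightest probe of each of the 27 genes. Of the 43 tested probes, 40 were detected on 12 arrays, and the exceptions were the dimmest probes of Fgfr3, Prodh and Sox2, on 7, 6 and 9 arrays. Levels below are log2 intensities, and differences are ethanol minus control on the log2 scale, each with its standard error (SE) from limma. A level is compared only with the same probe on other arrays.

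The cytoskeleton and cytoplasmic proteins were led by Gfap, the intermediate filament protein by which astrocytes are most often recognised. Its level was 7.97 at the lowest, 8.64 at the median and 10.02 at the highest of the 6 ethanol arrays, against 8.16, 8.61 and 9.78 in the 6 control arrays. Ethanol 3 and control 4 were the highest arrays of their groups, control 5 followed at 9.38, and the ranges overlapped almost wholly. The difference was −0.09 (SE 0.34, adjusted p = 0.987 in limma's test), and a dimmer Gfap probe gave −0.06 (SE 0.23). On chip 1 the difference was 0.58 (SE 0.44) and on chip 2 −0.75 (SE 0.30). Without ethanol 3 the chip 1 value was 0.04, and without control 4 the chip 2 value was −0.49.

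S100b encodes a calcium-binding protein of astrocytes that oligodendrocytes are also known to make. It spanned 5.61 to 6.63 with a median of 6.15 in ethanol arrays, against 5.57 to 6.32 with a median of 5.80 in control arrays. The 2 highest arrays were ethanol 3 and ethanol 2, and control 4 was the only control array above the ethanol median. The difference was 0.33 (SE 0.16, adjusted p = 0.854 in limma's test), with 0.61 (SE 0.16) on chip 1 and 0.05 (SE 0.22) on chip 2. It was 0.11 both without background correction and on the authors' normalized intensities, and 0.22 with an offset of 50. Vim, the filament protein vimentin, which ependyma and endothelium also make, differed by 0.04 (SE 0.13) over 12 arrays, by 0.29 (SE 0.13) on chip 1 and by −0.22 (SE 0.16) on chip 2. Ndrg2, a cytoplasmic protein also found in neurons, differed by −0.11 (SE 0.12).

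Among the 6 tested genes for channels, junctions and transporters, 5 had the higher ethanol value and 1, Slc4a4, the lower one. Aqp4, the water channel of astrocyte endfeet, was at 8.99, 9.53 and 9.71 (lowest, median and highest) in ethanol arrays, against 9.09, 9.30 and 9.55 in control arrays. Ethanol 6 was the lowest of the 12 arrays and ethanol 3 the highest, so that the control arrays lay inside the ethanol range. Its difference was 0.10 (SE 0.13, adjusted p = 0.954 in limma's test), with 0.35 (SE 0.15) on chip 1 and −0.15 (SE 0.17) on chip 2. Without ethanol 3 the difference over both chips was 0.04, without ethanol 6 it was 0.18, and without control 2 or control 3 it was 0.055.

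Gja1 and Gjb6 encode the connexins of astrocyte gap junctions. Gja1 was at 12.77, 12.90 and 13.11 in ethanol arrays, against 12.70, 12.78 and 13.11 in control arrays, again as lowest, median and highest. On chip 1 every ethanol array was above every control array, while on chip 2 control 4 and control 5 lay above all ethanol arrays. The Gja1 difference was 0.06 (SE 0.09, adjusted p = 0.968 in limma's test), and it ran from 0.02 without ethanol 3 to 0.10 without control 5. Gjb6 varied more than Gja1, from 9.54 to 10.83 in ethanol arrays and from 9.79 to 10.74 in control arrays, and differed by 0.03 (SE 0.23).

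Slc7a10 encodes the exchanger of small neutral amino acids, D-serine and glycine among them. Its levels were 8.00, 8.27 and 8.77 in ethanol arrays, against 7.91, 8.07 and 8.39 in control arrays (lowest, median and highest). Ethanol 3 was the highest array by a clear margin, and on chip 1 all 3 ethanol arrays lay above the controls. The difference was 0.18 (SE 0.12, adjusted p = 0.875 in limma's test), with 0.35 (SE 0.16) on chip 1 and 0.0007 (SE 0.16) on chip 2. Without ethanol 3 the chip 1 value was 0.18 and the value over both chips 0.08, and without ethanol 3 and ethanol 4 together the value over both chips was 0.04.

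Cldn10, a claudin, was read by 3 tested probes. The brightest was at 11.85, 12.05 and 12.26 in ethanol arrays, against 11.80, 11.89 and 12.24 in control arrays. Control 4 was far above the other control arrays and level with ethanol 3, the highest ethanol array. Its difference was 0.12 (SE 0.09, adjusted p = 0.887 in limma's test), while the other 2 probes gave −0.01 (SE 0.11) and 0.18 (SE 0.09). The brightest probe gave 0.08 without ethanol 3, 0.05 without ethanol 3 and ethanol 4, and 0.19 without control 4. Slc4a4, the sodium bicarbonate cotransporter, was at 10.75, 11.18 and 11.54 in ethanol arrays, against 11.25, 11.40 and 11.64 in control arrays. Ethanol 6 was the lowest array, and 4 of 6 ethanol arrays lay below every control array. The difference was −0.22 (SE 0.12, adjusted p = 0.854 in limma's test), and a second, dimmer probe gave 0.06 (SE 0.11), so its 2 probes disagreed in sign. Without ethanol 6 the brightest gave −0.13.

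The enzymes showed small differences that ran in opposite directions on the chips. By their brightest probes, all 5 were higher in ethanol arrays on chip 1, with differences of 0.02 to 0.15. On chip 2 all 5 were lower, with differences of −0.06 to −0.38, and none passed the test. Aldh1l1, a folate enzyme used as a marker of most astrocytes, was at 7.83, 8.11 and 8.23 (lowest, median and highest) in ethanol arrays, against 7.85, 8.02 and 8.34 in control arrays. Ethanol 1 was the lowest array and control 4 the highest, and the groups overlapped throughout. The difference was 0.03 (SE 0.10, adjusted p = 0.984 in limma's test). Plcd4, a phospholipase C, was at 6.44, 6.94 and 7.13 in ethanol arrays, against 6.70, 7.00 and 7.19 in control arrays. Ethanol 4 and ethanol 6 were the lowest arrays and the other 4 ethanol arrays lay among the controls. Its difference was −0.15 (SE 0.14, adjusted p = 0.916 in limma's test), and −0.07 without ethanol 4, −0.08 without ethanol 6 and −0.07 without background correction or on the authors' normalized intensities. The glycolytic enzyme Aldoc differed by −0.01 (SE 0.09), the fatty acid activating enzyme Acsbg1 by −0.02 (SE 0.11), and the proline oxidising enzyme Prodh by −0.09 (SE 0.11). A dimmer Aldoc probe gave −0.23 (SE 0.14), with −0.07 (SE 0.25) on chip 1 and −0.39 (SE 0.13) on chip 2. The dimmer Prodh probes gave −0.04 (SE 0.10) and −0.34 (SE 0.16), the dimmest with −0.12 (SE 0.17) on chip 1 and −0.57 (SE 0.24) on chip 2. The dimmest was detected on 2 ethanol and 4 control arrays. It thus met the detection rule mainly through control arrays, and its difference is no support for a lower ethanol level.

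The receptors lay close together between groups. Fgfr3, a receptor of fibroblast growth factors, differed by 0.06 (SE 0.09). Its dim second probe differed by −0.26 (SE 0.15), but was detected on 2 ethanol and 5 control arrays, so it met the detection rule mainly through control arrays. Ntsr2, the neurotensin receptor of astrocytes, differed by 0.07 (SE 0.11). Gpr37l1, a receptor of astrocytes and other glia, was at 10.50, 10.70 and 11.12 in ethanol arrays (lowest, median and highest), against 10.71, 10.76 and 11.12 in control arrays. Ethanol 3 and control 4 shared the top and ethanol 4 was the lowest array. The difference was −0.08 (SE 0.11, adjusted p = 0.959 in limma's test), with 0.15 (SE 0.14) on chip 1 and −0.31 (SE 0.14) on chip 2. It was −0.15 without ethanol 3, −0.03 without ethanol 4 and −0.02 without control 4.

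The smallest p-values among the astrocyte genes belonged to Id3 and Id4, both lower in ethanol arrays. These inhibitors of DNA binding pair with basic helix-loop-helix factors and keep them from binding DNA, and both are known targets of bone morphogenetic protein signals, which SMAD proteins carry to the nucleus. Id3 was at 6.74, 7.30 and 7.54 in ethanol arrays (lowest, median and highest), against 7.33, 7.60 and 7.69 in control arrays. The 3 ethanol arrays of chip 2, at 7.24, 6.95 and 6.74, were the 3 lowest of the 12, and the 3 of chip 1 lay among the controls. The difference was −0.34 (SE 0.13, unadjusted p = 0.0205, adjusted p = 0.845 in limma's test), with −0.04 (SE 0.13) on chip 1 and −0.64 (SE 0.15) on chip 2. The change of the difference from chip 1 to chip 2 was −0.60 (SE 0.19, adjusted p = 0.415 for the interaction in limma).

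Id4 was at 9.57, 10.21 and 10.43 in ethanol arrays by its brightest probe, against 10.13, 10.46 and 10.58 in control arrays. Ethanol 4 and ethanol 5 were the lowest arrays, and control 1 was the lowest control array. Control 3 to control 6, at 10.45 to 10.58, lay above every ethanol array, and the remaining arrays of both groups mixed. The difference was −0.33 (SE 0.14, unadjusted p = 0.0306, adjusted p = 0.845 in limma's test), with −0.04 (SE 0.13) on chip 1 and −0.62 (SE 0.18) on chip 2. A second Id4 probe was at 9.35, 9.78 and 9.97 in ethanol arrays, against 9.92, 10.16 and 10.24 in control arrays. Ethanol 2 was the 1 ethanol array above the lowest controls. That probe differed by −0.39 (SE 0.11, unadjusted p = 0.00262, adjusted p = 0.845 in limma's test), and by −0.30 (SE 0.14) on chip 1 and −0.47 (SE 0.16) on chip 2. The 2 probes of Id4 thus both had lower ethanol values, and they divided differently between the chips. Over the alternatives that leave out 1 array, the Id3 difference ran from −0.40 to −0.24 and that of Id4 from −0.40 to −0.23. Without background correction, and on the authors' normalized intensities, the Id3 difference was −0.18. The Id4 difference was −0.21 with ethanol 3 and ethanol 4 both left out.

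Neuroblast markers, of which 6 of 9 were tested, had the higher ethanol value for 6 of 6, with a median difference of 0.29, at 0.09 on chip 1 and 0.55 on chip 2. Their mean level was 7.11 to 8.12 in ethanol arrays and 7.21 to 7.45 in control arrays. Set against them over 12 arrays, Id3 had r = −0.76 (permutation p = 0.00523, adjusted p = 0.0849) and rho = −0.41 (permutation p = 0.193, adjusted p = 0.549). This r was −0.80 within ethanol arrays, 0.83 within control arrays, −0.18 on chip 1 and −0.99 on chip 2, and −0.66 without ethanol 6 and ethanol 1, the farthest arrays. Id4 had r = −0.27 (permutation p = 0.396, adjusted p = 0.644) and rho = −0.035 (permutation p = 0.919, adjusted p = 0.980). Id4 gave r = 0.0045 within ethanol arrays, 0.32 within control arrays, 0.54 on chip 1 and −0.51 on chip 2, and −0.65 without the same 2 arrays. Endothelium is also known to make Id3. Against endothelial and mural markers Id3 had r = 0.17 (permutation p = 0.589, adjusted p = 0.795). The part of neuroblasts in the Id3 and Id4 values, and of endothelium in those of Id3, was not tested.

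The other 3 regulators differed less. Sox9, which drives astrocyte formation, differed by 0.12 (SE 0.10) on its brightest probe and 0.14 (SE 0.13) on the other. Sox2, a regulator of neural progenitors, differed by −0.08 (SE 0.14). Hes5, a target of Notch signals, differed by −0.05 (SE 0.16), and it was the gene of the 27 whose difference was lowest on chip 1, at −0.25 (SE 0.20), and highest on chip 2, at 0.15 (SE 0.20). The second probes of Sox2 and Hes5 had the opposite sign over 12 arrays, at 0.10 (SE 0.14) and 0.02 (SE 0.18).

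The promoters of Id3 and Id4 are shown because these genes had the smallest p-values and were both lower on chip 2. They come from RefSeq on GRCm38.p6 and run 5′ to 3′ along the gene's strand, from 250 bases before the annotated start to 50 after it. Capitals mark matches on either strand to the SMAD core CAGAC, to TTGGC, a half-site of nuclear factor I, which drives astrocyte formation, or to TTCNNNGAA, the site of STAT factors. Matches of different motifs do not overlap here.
Id3, chr4:136143572-136143871: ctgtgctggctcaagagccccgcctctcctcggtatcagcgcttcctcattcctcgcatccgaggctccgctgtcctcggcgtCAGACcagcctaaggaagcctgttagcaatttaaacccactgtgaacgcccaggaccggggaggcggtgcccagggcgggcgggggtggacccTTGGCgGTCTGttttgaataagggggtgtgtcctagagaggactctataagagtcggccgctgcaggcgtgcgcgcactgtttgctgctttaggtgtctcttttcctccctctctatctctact
Id4, chr13:48260866-48261165: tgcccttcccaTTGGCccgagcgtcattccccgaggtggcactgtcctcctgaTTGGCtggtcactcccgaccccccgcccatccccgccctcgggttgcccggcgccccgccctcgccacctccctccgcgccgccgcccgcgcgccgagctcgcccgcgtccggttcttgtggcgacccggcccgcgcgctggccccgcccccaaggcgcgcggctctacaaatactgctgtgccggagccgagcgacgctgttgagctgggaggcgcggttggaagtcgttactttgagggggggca
Both lie on the plus strand. Id3 held 2 matches to the SMAD core, starting 167 and 68 bases before the annotated start, and 1 match to the nuclear factor I half-site, 74 bases before it. Id4 held 2 matches to the half-site, starting 239 and 197 bases before the start, and 0 to the SMAD core. SMAD sites of another sequence were not searched, so the count of 0 does not show that the Id4 promoter lacks one. Of 32851 mouse promoters of this length, 49.6% held the SMAD core, 46.7% the half-site and 8.3% the STAT site, so matches to the SMAD core and the half-site are common.

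The secreted proteins ranged from the steadiest astrocyte gene, Htra1, to Itih3, whose spread was second to that of Gfap. Htra1, a secreted protease, had a residual SD of 0.0692, at the 0.877th percentile of all tested probes, and differed by 0.07 (SE 0.07). Apoe, the main lipid carrier made by astrocytes, was at 12.43, 12.55 and 12.71 in ethanol arrays (lowest, median and highest), against 12.44, 12.55 and 12.66 in control arrays. The arrays of both groups covered the same narrow range. The difference was −0.0025 (SE 0.07, adjusted p = 0.998 in limma's test), and it was also near 0 on each chip. Cst3, the protease inhibitor cystatin C, differed by 0.0004 (SE 0.08). Microglia are also known to make Apoe and Cst3.

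Itih3, a heavy chain that binds hyaluronan in the extracellular matrix, had the largest difference of the 27 genes and a wide spread. It was at 9.34, 9.66 and 11.27 in ethanol arrays, against 8.98, 9.34 and 10.36 in control arrays. Ethanol 3 was well above the next array, and control 4 and ethanol 4 followed. Control 1, control 2 and control 6, at 8.98, 9.08 and 9.03, lay below every ethanol array, and the remaining arrays of both groups mixed. The difference was 0.47 (SE 0.31, adjusted p = 0.867 in limma's test), and a second probe gave 0.39 (SE 0.30). On chip 1 it was 0.91 (SE 0.45), or 0.35 without ethanol 3, and on chip 2 it was 0.03 (SE 0.33). With each array left out in turn, the difference ran from 0.20, without ethanol 3, to 0.66, and with ethanol 3 and ethanol 4 both left out it was 0.07.

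**Figure D3:**
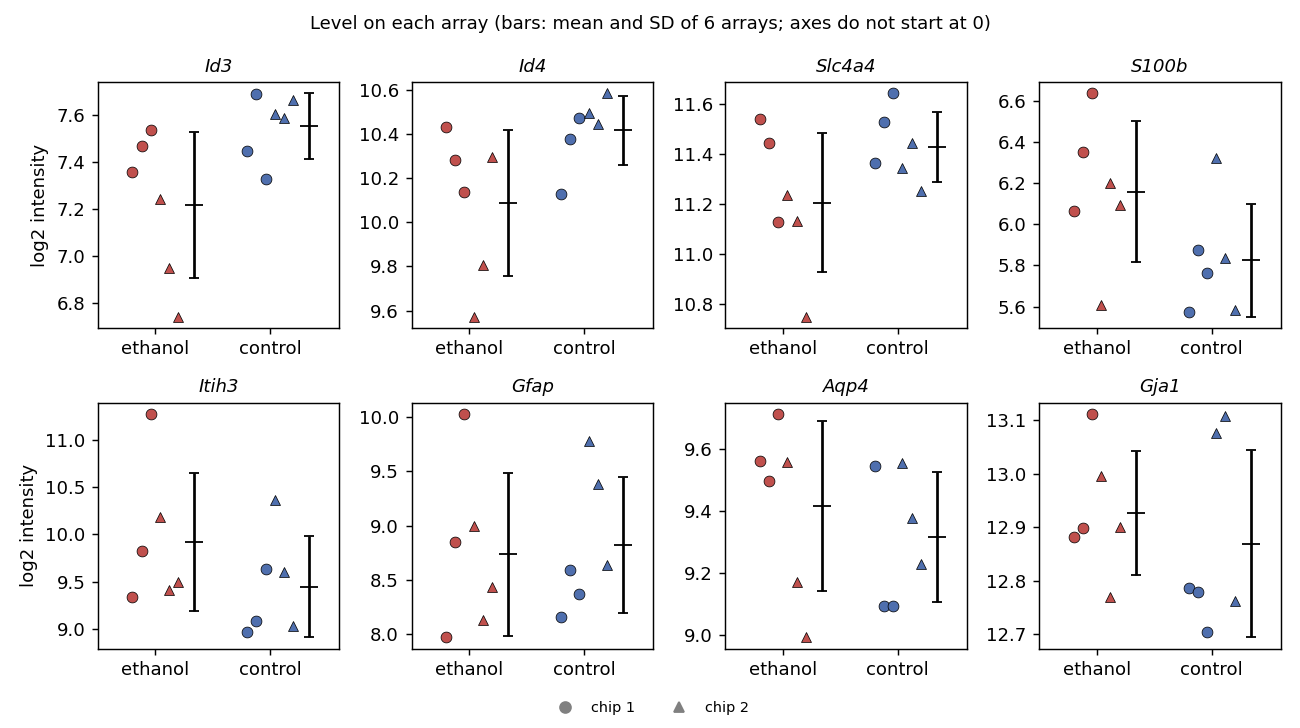
Log2 intensity of 8 astrocyte genes on each array, ethanol left of control (circles chip 1, triangles chip 2, bars the mean and SD of 6 arrays). Id3 is lowest on the 3 ethanol arrays of chip 2 and Id4 on ethanol 4 and ethanol 5, Slc4a4 has 4 of 6 ethanol arrays below every control array, and Itih3 and Gfap each have ethanol 3 as the highest array.

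Gfap and Itih3 had the largest residual SDs of the astrocyte genes, 0.69 and 0.64, at the 99.7th percentile of all tested probes in both cases, and Gjb6 followed with 0.46, at the 98.3rd. Gfap and Itih3 were both highest on ethanol 3 and second highest on control 4. Their promoters are shown for that reason, from RefSeq on GRCm38.p6 with the same limits and the same 3 motifs in capitals, each along the gene's minus strand.
Gfap, chr11:102897151-102897450: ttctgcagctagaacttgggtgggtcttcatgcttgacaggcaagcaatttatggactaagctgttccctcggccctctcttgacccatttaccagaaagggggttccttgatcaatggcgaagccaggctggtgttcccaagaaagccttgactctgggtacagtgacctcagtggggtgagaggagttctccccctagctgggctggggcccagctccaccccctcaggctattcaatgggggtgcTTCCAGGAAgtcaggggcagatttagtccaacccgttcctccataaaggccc
Itih3, chr14:30923538-30923837: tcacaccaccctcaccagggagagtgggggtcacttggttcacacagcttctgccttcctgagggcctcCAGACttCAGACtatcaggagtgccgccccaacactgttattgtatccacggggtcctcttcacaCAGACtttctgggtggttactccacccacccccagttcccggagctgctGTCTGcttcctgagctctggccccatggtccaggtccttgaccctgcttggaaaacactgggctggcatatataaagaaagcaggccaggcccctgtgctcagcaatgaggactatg
Gfap held 1 match to the STAT site, from 2 bases before the annotated start to base 7 after it. STAT factors are known to carry cytokine signals to Gfap in reactive astrocytes, but whether they act through this match was not tested. The STAT site was held by 8.3% of all 32851 promoters. Itih3 held 4 matches to the SMAD core, starting 181, 174, 116 and 67 bases before the start, and 0 to the STAT site.

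Each member was set against the mean level of 12 marker lists of other cells over the 12 arrays, 324 pairs in all, with permutation p-values adjusted over the pairs. By Pearson's r 4 pairs had an adjusted p under 0.05, and by Spearman's rho 0 did. Gpr37l1 ran with the oligodendrocyte markers, with r = 0.94 (permutation p = 1e-05, the smallest the resamples can give, adjusted p = 0.00324) and rho = 0.90 (permutation p = 0.00016, adjusted p = 0.0518). It was 0.95 within the ethanol arrays and 0.92 within the control arrays, and 0.95 on chip 1 and 0.94 on chip 2, with 6 arrays each. Without ethanol 3 and ethanol 4, the arrays farthest from the median of the markers, r was 0.91. Without those and control 4, r was 0.83 over the other 9 arrays (exact permutation p = 0.0025). The 9 arrays were chosen after seeing the data, for pairs picked by their r over the 12 arrays. The p-values over 9 arrays, here and below, are not adjusted and are no separate test of these pairs. The oligodendrocyte list itself had 1 tested gene higher and 9 lower in ethanol arrays, with a median difference of −0.15, at 0.30 on chip 1 and −0.59 on chip 2.

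Apoe ran with the meninges markers, of which 4 of 7 were tested. There r was 0.89 (permutation p = 3e-05, adjusted p = 0.00486) and rho 0.85 (permutation p = 0.00067, adjusted p = 0.0724). Within the ethanol arrays r was 0.87, within the control arrays 0.94, on chip 1 it was 0.86 and on chip 2 0.91. Leaving out ethanol 3 and control 4, the farthest arrays, gave 0.79. Over the 9 arrays without ethanol 3, ethanol 4 and control 4 it was 0.81 (exact permutation p = 0.00855).

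Itih3 ran against the striatal projection neuron markers, but 3 arrays carried the relation. Over 12 arrays r was −0.92 (permutation p = 0.00039, adjusted p = 0.0421) and rho −0.62 (permutation p = 0.0384, adjusted p = 0.311). Ethanol 3, ethanol 4 and control 4 form a cluster of their own at low marker level, at least 1 of them in each group and on each chip. Within ethanol arrays, control arrays, chip 1 and chip 2 r was −0.94, −0.90, −0.93 and −0.92, while over the other 9 arrays r was −0.24 (exact permutation p = 0.533). With choroid plexus markers, Itih3 had r = 0.83 (permutation p = 0.00052, adjusted p = 0.0421) and rho = 0.83 (permutation p = 0.00146, adjusted p = 0.0853). It was 0.68 without control 1 and ethanol 3, the farthest arrays, and 0.56 over the 9 arrays (exact permutation p = 0.116). Within ethanol arrays, control arrays, chip 1 and chip 2 this r was 0.94, 0.73, 0.93 and 0.59.

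**Figure D4:**
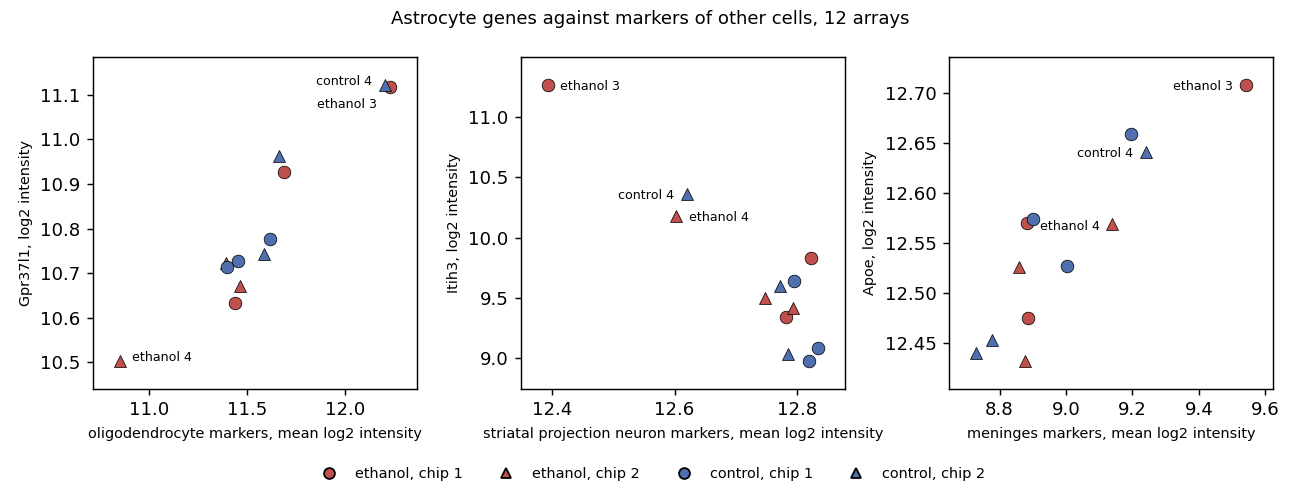
Log2 intensity of Gpr37l1, Itih3 and Apoe (y axes) against the mean log2 intensity of oligodendrocyte, striatal projection neuron and meninges markers (x axes), 1 point per array. Ethanol 3, ethanol 4 and control 4 are named. In the middle panel these 3 arrays lie away from the other 9, over which r was −0.24.

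Astrocyte genes outside the 30 were read from 2 further lists. Of 48 other genes of astrocytes, such as glutamate transporters and potassium channels, 40 were tested, and 0 passed adjustment in limma's test. Of these, 24 had the higher ethanol value and 16 the lower one, with a median difference of 0.03, at 0.12 on chip 1 and −0.07 on chip 2. Entpd2, which breaks down extracellular nucleotides, had the smallest p, at 8.61 to 9.18 in ethanol arrays and 8.47 to 8.71 in control arrays, and differed by 0.28 (SE 0.10, adjusted p = 0.845). Cbs, an enzyme of homocysteine breakdown, was at 7.18 to 7.86 in ethanol arrays and 7.01 to 7.51 in control arrays, and differed by 0.31 (SE 0.12, adjusted p = 0.845).

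Of 33 genes that reactive astrocytes are known to induce, 14 were tested and 0 passed adjustment in limma's test. The ethanol value was higher for 3 and lower for 11, with a median difference of −0.06, at 0.10 on chip 1 and −0.24 on chip 2. The smallest p-values were those of Emp1, a membrane protein, at −0.19 (SE 0.13, adjusted p = 0.880), and Fkbp5, a glucocorticoid-induced chaperone partner, at −0.14 (SE 0.11, adjusted p = 0.881). In both lists the chip 1 median was above the chip 2 median, as for the 27 genes.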

How the data were processed

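Total RNA of 12 caudate putamen samples was measured on Illumina bead arrays, each sample on its own array. The deposited raw table gives linear intensities without normalization, each with a detection p-value beside it, per the file headers. A second deposited table holds intensities that the authors normalized between arrays, as its shared quartiles show. The background setting of GenomeStudio 1.9.0, which the submitters' processing notes name, is not given in the sources used here.

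Here neqc (limma 3.58.1, R 4.3.3) corrected raw intensities for background by the detection p-values, added an offset of 16 and quantile normalized the log2 values. The filter, a detection p below 0.05 on 6 or more arrays, kept 20296 of 45281 probes for testing. Raw median intensities lay between 136.1 and 153.2, and 19452 to 21949 probes were detected per array. The number of arrays limits the precision. No 2 arrays were closer than a root mean square difference of 0.272 on the log2 scale, and none was counted as a copy.

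Each probe was tested between groups by limma (lmFit, eBayes), two-sided, with Benjamini-Hochberg adjustment over all tested probes and a threshold of 0.05, over 12 arrays, on each chip, and for the interaction of group and chip. Permutation tests used 100000 resamples, or all orders for 9 arrays, two-sided. The tests were checked on simulated data. The genes and lists were chosen with earlier results of these data known. The lowest, median and highest level of each group is given for Gfap, Aqp4, Aldh1l1, Gja1 and Slc7a10. The same holds for the 4 genes with the smallest p in each direction and the 2 with the largest residual SD. It also holds for the genes of the 3 pairs with the largest absolute r past the adjusted threshold. The second Id4 probe is given in the same way, chosen after its values were seen. Alternatives were other normalizations (cyclic loess, median scaling, the authors' normalized intensities), an offset of 50, leaving out the background correction, other detection filters, chip as a block, a replicate block, robust eBayes, array weights, the mean of a gene's probes, and arrays left out singly or in pairs. Promoter sequences were matched by symbol to RefSeq's table on GRCm38.p6.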

Additional observations from a re-analysis of the deposited data

Results flagged for a closer look

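Each group of 6 arrays was searched for an array far from the other 5, for the 27 genes and their mean level. Of these 56 groups 4 held such an array. Chance gives about 1 in 20 where groups are independent, which these are not, so the count cannot be judged against that share. The 4 are not independent, since the mean level is taken over the same genes. Ntsr2 and Cldn10, which were among the 4, also ran together over the 12 arrays (r = 0.85). All 4 were control 4 on the high side. The mean log2 level of the 27 genes was 10.22 there, against 9.86 to 9.96 in the other control arrays. Ntsr2, the neurotensin receptor, was at 12.13, against 11.52 to 11.70. Cldn10 was at 12.24, against 11.80 to 11.94, and Cst3 at 15.09, against 14.76 to 14.88. Oligodendrocyte markers were highest in this control array too, at 12.20, against 11.40 to 11.66 in the other control arrays, and their part in these values was not tested.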

How the results depend on the processing

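Under each alternative run, 0 member probes passed the threshold, as in the values reported, and the number of probes called among all those tested was 0 as well. At an unadjusted p under 0.05, 588 probes were higher and 587 lower in ethanol arrays, and with median scaling 336 were higher and 678 lower. The median difference of the 27 genes ran from −0.03 (without ethanol 3) to 0.08 (without control 4) when 1 array was left out, with 11 to 18 genes higher, and was −0.03 with median scaling. Leaving out ethanol 3 and ethanol 4 together left 9 genes higher, against 14 with all arrays, and turned the sign of Aldh1l1 (−0.021), Aqp4 (−0.0106) and Gja1 (−0.007). When 1 array was left out, the sign turned for Aldh1l1 (−0.0096 to 0.0869), Apoe (−0.0348 to 0.0204) and Gfap (−0.344 to 0.107), whose differences were near 0 with all arrays. The other 9 of 14 genes named with lowest, median and highest levels kept their sign under each alternative. Single values still moved by over 1.5 times, as given beside them. On chip 1 the median ran from 0.07 to 0.18 and on chip 2 from −0.15 to −0.03 when 1 array was left out. The interaction of group and chip gave 0 calls under each alternative run for it. With a replicate block, 0 probes passed and the median was 0.0004. Deviations of same-numbered arrays correlated between −0.14 and 0.28, not above 0.1 in every pair, so the numbers were not taken as a pairing, which the labels do not settle. No filter raised the probes at an unadjusted p under 0.05 to 2420, where more dim probes are tested. Leaving out ethanol 3 and control 4 together, or any array of a chip, was chosen after seeing the data. So was leaving out ethanol 3, ethanol 4 and control 4 together for the correlations. Probes near background understate differences, and 3 tested member probes were not detected on each array.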
